A study of Drosophila melanogaster with 4 samples.

Results

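The expression of 4 genes of the Wnt signalling pathway, CkIalpha (Entrez gene 32221), slmb (42504), nkd (44843) and CtBP (41602), was examined in heads of untreated Drosophila melanogaster. Their clones were found by gene name in the array annotation. They are 4 of 2406 named genes that could be tested, and they are represented by 6 cDNA clones, 5 of which carried values. The data were 4 cDNA microarrays, called NF-NF in the study (normal food against normal food) and NM-NM in the labels. On each array a pool of heads labelled with Cy5 was hybridized together with another pool of the same kind labelled with Cy3. All flies were unmated Oregon-R wild type males that had been kept in vials of 30 for another 3 to 4 days after collection, without drug. In the study's methods 3 to 4 days is the age of the flies at the start of its experiments. Both pools of replicates 2 to 4 had spent 12 h in the treatment vessel, whereas on replicate 1 this time was 12 h for Cy5 but 6 h for Cy3 according to the labels. The study's methods list the same arrays as 0 h, and this difference from the labels could not be settled here. In the study these arrays served as the control for flies fed the convulsant pentylenetetrazole, which are not analysed here.

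Wnt ligands such as Wingless are secreted proteins that bind Frizzled receptors and the coreceptor Arrow. In cells without the ligand, Armadillo, the fly beta-catenin, is held by a complex of scaffold proteins and kinases, phosphorylated, marked with ubiquitin and destroyed. When the ligand binds, Dishevelled is recruited and this destruction stops, so that Armadillo reaches the nucleus and activates target genes together with Pangolin, the fly TCF. In the fly nervous system the pathway is known for its part in building the larval neuromuscular synapse. CkIalpha is a casein kinase of the destruction complex, slmb encodes the F-box protein that brings phosphorylated Armadillo to the ubiquitin ligase, nkd encodes an inducible antagonist that binds Dishevelled, and CtBP encodes a transcriptional corepressor.

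Each value is the log2 ratio of the Cy5 signal to the Cy3 signal of a clone, averaged over its adjacent duplicate spots. Once the array's median has been subtracted, 0 stands for a clone at that median. The ratio holds any difference between the dyes as well as any between the pools. The part of the dyes was not tested. Before centring, the array medians stood at 0.14, 0.0005, 0.08 and -0.70 (replicates 1 to 4), and centred values are given unless stated. Replicate 4 stood apart, with values for 8.1% of its spots against 28.8 to 30.5% on the other arrays. Its centred values correlated with those of replicates 1, 2 and 3 with r = -0.014, 0.352 and 0.013 across clones, which are not independent replicates. Between the other arrays r was 0.714 for replicates 1 and 3, 0.430 for 1 and 2 and 0.355 for 2 and 3. Pairs of arrays shared at most 13 identical spot values of 7944 in common, so the arrays held separate measurements. The labels give the dyes in the same orientation on all 4 arrays, but the study's methods speak of dye-swapped slides and do not say which. By the labels a negative value means a lower signal in the pool labelled as Cy5, and "lower in Cy5" is used in this sense below. Whether the ratios of swapped slides had been turned before deposit is not known. No treatment stands behind the sign. The 4 arrays limit the precision, and limma p-values measure the spread between these arrays. Fewer cells of a type and less RNA per cell cannot be told apart in whole heads.

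Among tissue markers, nSyb, the neuronal synaptobrevin, and the photoreceptor genes trpl and Arr1 were measured. elav and ninaE could not be looked up, since the annotation used here does not pair these names with a probe. Of the 4 annotated genes of the male reproductive tract and testis list 0 had a clone with a value. A missing value here does not show absence, because the authors' filters removed spots that were dim, saturated, uneven or marked bad.

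CkIalpha was measured on 3 arrays, and its signal was lower in Cy5 on all of them by nearly the same amount. Its kinase primes Armadillo for further phosphorylation, and it also acts on the Hedgehog effector Ci. The centred log2 ratios were -0.27, -0.24 and -0.23 on replicates 1, 2 and 3, and there was no value on replicate 4. All 3 arrays thus lay on 1 side of 0 and close together, with a mean of -0.25 ± 0.02 (SD, n = 3), or a signal 1.19-fold lower in Cy5. The limma 95% interval ran from -0.46 to -0.03 and the adjusted p was 0.130 (unadjusted p = 0.0283), so the gene did not pass. Its SD over arrays was among the lowest. Of 3250 clones measured on exactly replicates 1 to 3, 60 (1.85%) had an SD as low or lower. This holds only where replicates 1 to 3 ran in 1 dye orientation: with the sign of replicate 2 turned the SD of CkIalpha was 0.29, and 68.9% of these clones had one as low. The duplicate spots of CkIalpha on replicate 2 were at -0.371 and -0.115 as deposited, which differ by 0.256, where the median difference between duplicate spots of that array was 0.102. On replicates 1 and 3 they differed by 0.075 and 0.083, below the array medians of 0.115 and 0.124. The agreement between arrays was thus closer than that between the spots of replicate 2.

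The slmb clone with values gave the lowest mean of the 4 genes. Slmb, the fly counterpart of beta-TrCP, recognises phosphorylated Armadillo and Ci, and it also takes part in the turnover of the clock protein Period. The centred log2 ratios of slmb were -0.26, -0.40 and -0.22 on replicates 1, 2 and 3. Replicate 2 was the lowest of these and all lay below 0, with a mean of -0.30 ± 0.10 (SD, n = 3), or a signal 1.23-fold lower in Cy5. On replicate 2, where the ratios of all clones were spread least (SD 0.23), slmb was at percentile 4.29 of the clones tested. It was at percentiles 23.5 and 28.5 on replicates 1 and 3, well within the bulk of the clones. The limma interval ran from -0.52 to -0.07, with an adjusted p of 0.105 (unadjusted p = 0.0163). The duplicate spots of slmb differed by 0.249 on replicate 3, against an array median of 0.124, and by 0.076 and 0.058 on replicates 1 and 2. A second slmb clone had a value on 0 of 4 arrays, so the slmb result rests on 1 clone.

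CtBP alone of these genes had 2 measured clones, and the clones differed. CtBP binds DNA-bound repressors such as Knirps and Krüppel and silences their targets, and in Wnt signalling it acts on target genes in the nucleus. The first CtBP clone, in the order of the table, had centred log2 ratios of 0.0043, 0.03 and -0.09 on replicates 1, 2 and 4, with a mean of -0.02 ± 0.06 (SD, n = 3) and an adjusted limma p of 0.910. These values lie on both sides of 0. The second CtBP clone was at -0.21, -0.24 and -0.30 on replicates 1, 2 and 3, with a mean of -0.25 ± 0.04 (SD, n = 3), an interval from -0.46 to -0.03 and an adjusted limma p of 0.132 (unadjusted p = 0.0295). All 3 values of the second clone lay below all 3 of the first. On the arrays that measured both, the first clone was higher by 0.22 on replicate 1 and by 0.26 on replicate 2.

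Such a gap between clones was not unusual in this table. The means of the CtBP clones differed by 0.23, and over 135 genes with 2 tested clones the median difference was 0.20, with 58.5% of them below that of CtBP. The part of the CtBP transcripts that each clone covers was not looked up here. CtBP alone of the 4 genes had a value on replicate 4, and this came from the first clone alone. There it was at -0.78 as deposited, which is -0.09 from the median of that array. Averaging the clones put CtBP at -0.10, -0.10, -0.30 and -0.09 on the 4 arrays in turn. Their mean was -0.15 ± 0.10 (SD, n = 4), and limma gave an adjusted p of 0.238. The value on replicate 3 came from the second clone and that on replicate 4 from the first.

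nkd did not keep 1 sign over the arrays. Naked cuticle is a feedback antagonist in the fly embryo, where Wnt signalling turns on the gene. The centred log2 ratios of nkd were -0.09, 0.15 and -0.18 on replicates 1, 2 and 3. The value on replicate 2 was at percentile 82.2 of that array, and those on replicates 1 and 3 were at percentiles 39.3 and 32.3. The mean was -0.04 ± 0.17 (SD, n = 3), with a limma interval from -0.29 to 0.21 and an adjusted p of 0.822. As deposited the mean was 0.03 ± 0.13, on the other side of 0. The duplicate spots of nkd differed by 0.076, 0.016 and 0.097 on the 3 arrays.

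**Figure D1:**
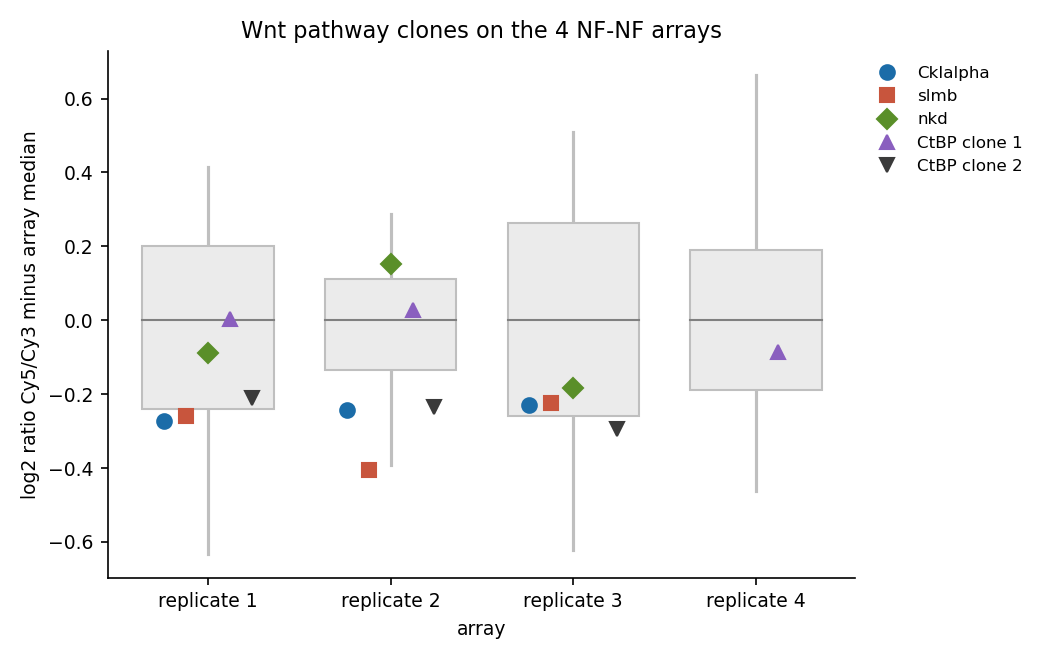
Centred log2 ratio of Cy5 over Cy3 (y axis) on each NF-NF array (x axis) for the 5 measured clones of CkIalpha, slmb, nkd and CtBP, where grey boxes span the central quartiles of all tested clones on the array, grey lines the range from quantile 0.05 to 0.95, and the horizontal line marks the array median at 0. CkIalpha, slmb and the second CtBP clone lie between -0.40 and -0.21 on replicates 1 to 3, nkd and the first CtBP clone lie on both sides of 0.

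Of the 5 clones 0 passed limma's test at an adjusted p of 0.05, and of all 4208 clones tested 0 (0.0%) passed. At an unadjusted p under 0.05 stood 3 of the 5 clones (CkIalpha, slmb and the second CtBP clone), all below 0, against 710 of 4208 clones below 0 (16.9%) and 1272 (30.2%) in either direction. These counts rest on the unturned signs. With replicate 4 turned they were 3 of 5 and 1274 of 4208 (30.3%), whereas 0 of the 5 clones stood under 0.05 in the other 6 turned settings, and the count over all clones was 146 with replicate 2 turned, 31 with 3, 12 with 2 and 3, 204 with 2 and 4, 17 with 3 and 4, and 20 with 2, 3 and 4. With the signs unturned, the 3 clones named lay below the median on every array that measured them, and 1058 of 4208 clones (25.1%) did so, while 0 of the 5 clones and 1064 of all clones (25.3%) lay above it on every such array. Among clones measured on exactly replicates 1 to 3 the share was 27.1%. The median of the 5 means was -0.25, where that of all clones was -0.0030. In the order of all clone means slmb stood at percentile 14.2, CkIalpha at 17.9, the second CtBP clone at 18.0, nkd at 43.8 and the first CtBP clone at 47.0. This order also changed with the signs. With replicate 2 turned nkd was the lowest, at percentile 23.2 (mean -0.14), and slmb was at 45.3 (mean -0.03). With replicates 2 and 3 turned slmb was the highest of the 5, at percentile 88.8 (mean 0.12). In departure from 0 as such, measured as the root mean square of the centred log2 ratios, slmb was at percentile 66.8, the second CtBP clone at 52.1, CkIalpha at 51.6, nkd at 21.3 and the first CtBP clone at 1.45. The 5 clones thus lay near the middle of the table or below it in size, apart from slmb somewhat above.

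The count of calls over all clones changed with replicate 4, an array without a value for CkIalpha, slmb, nkd and the second CtBP clone. Without that array limma called 380 of 4208 clones (9.03%), 379 of 3976 clones measured on all the other arrays (9.53%), 792 with values as deposited (18.8%) and 68 after subtraction of the neighbours' median (1.62%). It called 465 clones (11.1%) with duplicate spots entered separately and 1 of 4216 (0.0237%) with values on at least 2 arrays, and SAM called 160 (3.8%). In each of these settings 0 clones of the 4 genes were called. The nearest was slmb, with an adjusted limma p of 0.0649 for duplicate spots entered separately, where the second CtBP clone had 0.0669. Without replicate 4 the adjusted limma p of slmb was 0.0756. It was 0.0699 over clones measured on all the other arrays and 0.0650 after subtraction of the neighbours' median.

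**Figure D2:**
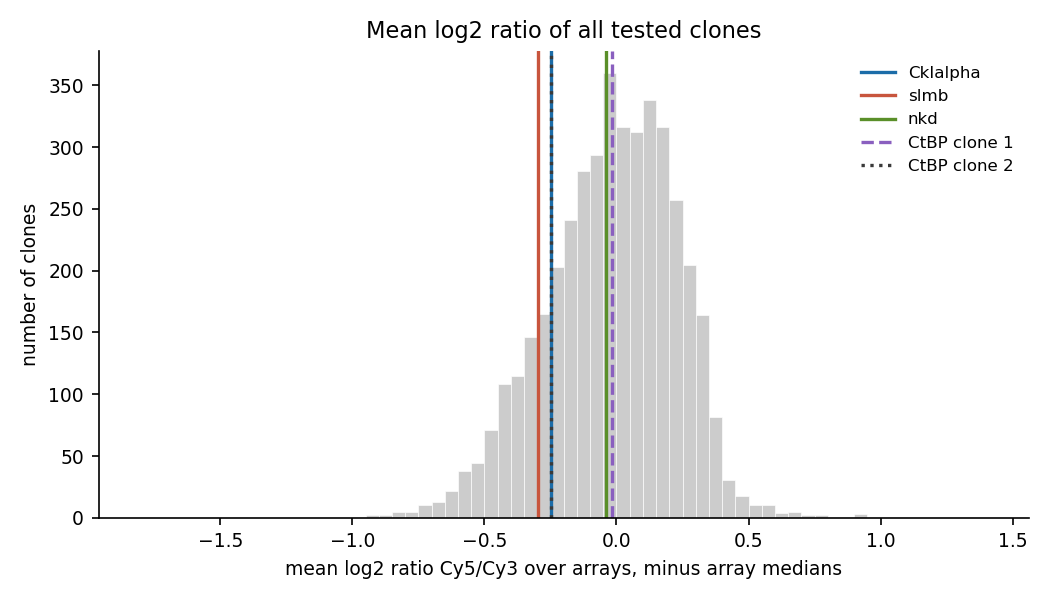
Distribution of the mean centred log2 ratio of Cy5 over Cy3 (x axis) over the 4208 tested clones (y axis, number of clones in bins of 0.05), with vertical lines at the 5 clones of the Wnt pathway genes. The lines of CkIalpha and the second CtBP clone fall on each other at -0.25, slmb is at -0.30, and nkd and the first CtBP clone are at -0.04 and -0.02 near the centre.

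The genes were next compared with each other on the same array, a comparison that subtracting an array's median cannot alter. Of 10 pairs of clones 6 shared 3 arrays and were tested with the exact two-sided sign permutation test, whose smallest p is 0.25 with 3 arrays, so that no pair could pass. nkd was above slmb by 0.17, 0.56 and 0.04 on replicates 1 to 3. The mean difference was 0.26 ± 0.27 (SD, n = 3; exact permutation p = 0.25), and replicate 2 gave most of it. nkd was above CkIalpha by 0.18, 0.40 and 0.05, with a mean of 0.21 ± 0.18 (exact permutation p = 0.25). It was above the second CtBP clone by 0.12, 0.39 and 0.11, with a mean of 0.21 ± 0.16 (exact permutation p = 0.25). With the signs unturned nkd was thus the higher gene on 3 of 3 arrays in each of these pairs, by amounts close to or above their SD. With the sign of replicate 2 turned its mean differences were reversed, at -0.115 from slmb, -0.056 from CkIalpha and -0.051 from the second CtBP clone. CkIalpha and slmb, which act on Armadillo in sequence, differed by -0.01, 0.16 and -0.0050, with a mean of 0.05 ± 0.10 (exact permutation p = 1). The second CtBP clone differed from slmb by 0.05 ± 0.12 (exact permutation p = 0.75) and from CkIalpha by 0.00067 ± 0.06 (exact permutation p = 1), and neither kept 1 sign over the arrays. With 3 arrays these values do not show that the genes were equal. With the median of neighbouring spots in table order subtracted nkd and the second CtBP clone differed by 0.01 on average (exact permutation p = 1), while the mean differences of nkd from slmb and CkIalpha were 0.27 and 0.17 (exact permutation p = 0.25 for each). The same step moved the second CtBP clone minus slmb to 0.26, that clone minus CkIalpha to 0.16 and CkIalpha minus slmb to 0.11, each with 1 sign on 3 of 3 arrays (exact permutation p = 0.25). Without replicate 2 the mean difference of nkd was 0.11 from slmb, 0.11 from CkIalpha and 0.12 from the second CtBP clone. The first CtBP clone shared 2 arrays with each of the others. There it was above CkIalpha by 0.28 and 0.27, above slmb by 0.26 and 0.43, and it differed from nkd by 0.09 and -0.13.

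Replicate 1, the array with unequal times in the vessel, held no extreme value for slmb, nkd or the first CtBP clone. For these its value lay between those of the other arrays that measured the clone. For CkIalpha it was the lowest and for the second CtBP clone the highest of 3. As 1 array has these labels, an effect of the time was not tested.

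The ratios of neighbouring spots were then compared with those of the 5 clones. Neighbours are here the spots with a value that come next in the order of the table. The window of 49 holds the clone's own spots too, and positions on the slide were not used. For the second CtBP clone the median of these 49 spots was itself low, at -0.30, -0.04 and -0.28 from the median of replicates 1, 2 and 3. With the neighbours' median subtracted this clone was at 0.09, -0.20 and -0.02, with a mean of -0.04 ± 0.15 (SD, n = 3). On replicates 1 and 3 most of its distance from 0 was thus shared with the spots near it in the table, but on replicate 2 little of it was. The neighbours of the first CtBP clone were low on replicate 1, at -0.37, and after the same step it was at 0.37, 0.15 and -0.16 on replicates 1, 2 and 4, with a mean of 0.12 ± 0.27. The CtBP clones remained apart on both shared arrays after this step, by 0.32 on average. slmb was at -0.30, -0.26 and -0.36 (replicates 1 to 3), and the mean was -0.31 ± 0.05 (SD, n = 3). CkIalpha was at -0.24, -0.21 and -0.15, with a mean of -0.20 ± 0.05 (SD, n = 3). Both kept most of their size, and the spread of slmb was smaller than before. nkd stayed on both sides of 0, at -0.09, 0.11 and -0.12. After this step limma gave an adjusted p of 0.103 for slmb, 0.166 for CkIalpha and 0.787 for the second CtBP clone, and 2 of 4208 clones (0.0475%) passed.

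**Figure D3:**
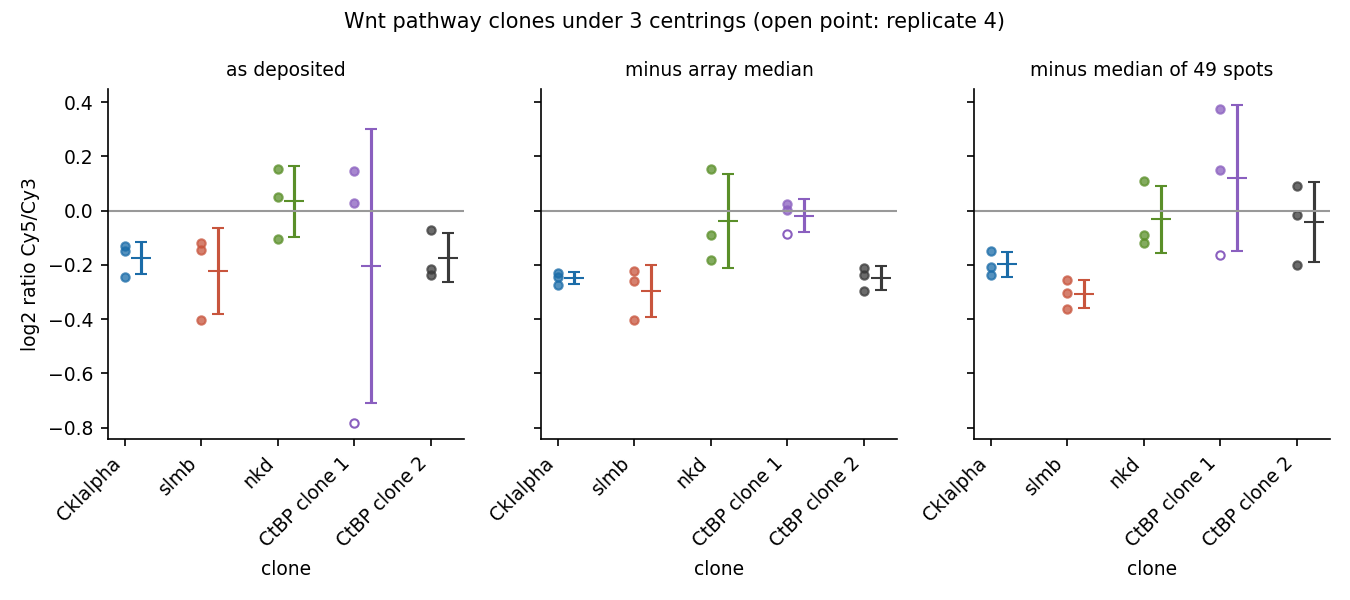
Log2 ratio of Cy5 over Cy3 (y axis) of the 5 clones (x axis) as deposited, after subtraction of the array median and after subtraction of the median of the 49 nearest spots in table order, where points are arrays, the open point is replicate 4, and bars give the mean and SD over 3 arrays. slmb lies between -0.40 and -0.12 in each panel, whereas the second CtBP clone moves from a mean of -0.25 to -0.04 in the last panel.

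Other genes of the pathway gave little to set beside these 4. Of 82 genes on 7 lists that follow the pathway from ligands to nucleus, members included, 20 were found in the annotation, and 5 of them had a clone with a value on at least 3 arrays. The measured gene besides the members was dgo, which encodes Diego, an ankyrin repeat protein of the planar polarity branch that binds Dishevelled. dgo was at 0.33, 0.19 and 0.57 on replicates 1 to 3, all above 0, with a mean of 0.36 ± 0.19 (SD, n = 3) and an adjusted limma p of 0.0950. On each of these arrays it lay above every clone of the members that had a value. With the signs unturned 25.3% of all clones lay above 0 on every array that measured them. The ligand and secretion list had 0 measured genes, although por and wls, which serve Wnt lipidation and Wnt transport, were spotted. The receptor list, with drl and dnt spotted, also had 0. The scaffold gene Axn, the kinase gene dco, the cullin gene Cul1 and the corepressor gene gro were spotted without a value on at least 3 arrays.

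Slmb and CkIalpha also serve the Hedgehog pathway, where the effector Ci is phosphorylated by protein kinase A and casein kinases and trimmed after binding Slmb. Of 14 genes on that list 6 were annotated and 1 was measured, the protein kinase A regulatory subunit gene Pka-R1. Its centred log2 ratios were -0.40, -0.27, -0.55 and -0.04 on replicates 1 to 4, all below 0 like those of slmb and CkIalpha. The mean was -0.32 ± 0.21 (SD, n = 4) and the adjusted limma p was 0.0958. With the neighbours' median subtracted the mean of Pka-R1 was -0.18. A sign shared in this way was common, since 25.1% of all clones lay below 0 on every array that measured them, with the signs unturned. Of 12 genes listed as repressors that may work through CtBP, 3 were measured. zfh2, a zinc finger and homeodomain factor, was at -0.82, -0.32, -0.29 and -0.48 (replicates 1 to 4), and the mean was -0.48 ± 0.24 (SD, n = 4) with an adjusted limma p of 0.0617. It was the lowest of the measured genes on these lists. The gap gene kni was at -0.10 ± 0.12 (SD, n = 3) and Kr at 0.16 ± 0.28 (SD, n = 4), each on both sides of 0. The limma fit gave adjusted p-values of 0.505 and 0.353 for them. Of the 5 genes besides the members 0 passed.

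**Figure D4:**
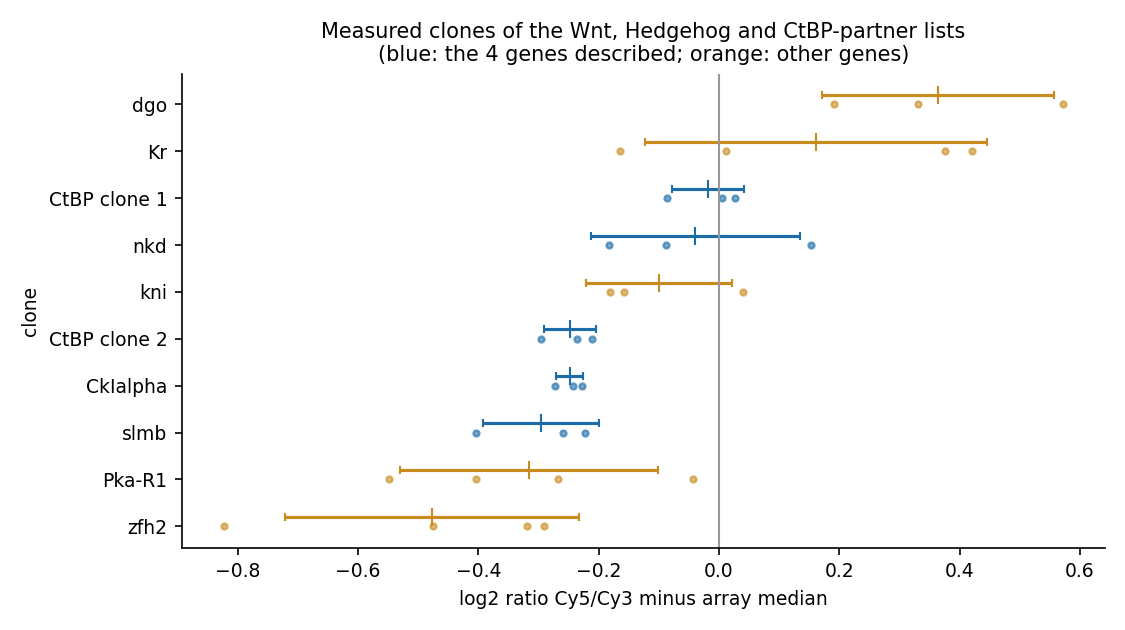
Centred log2 ratio of Cy5 over Cy3 (x axis) for the 10 measured clones of the Wnt, Hedgehog and CtBP-partner lists (y axis), where points are arrays, bars the mean and SD over 3 or 4 arrays, blue the clones of CkIalpha, slmb, nkd and CtBP, and orange other genes. The means run from -0.48 for zfh2 to 0.36 for dgo, and those of the members from -0.30 to -0.02.

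Markers of cell types on the same arrays, measured on more clones than the members, were spread over a wider range. The glial genes Eaat2 and Gs2 had centred means of -0.33 and -0.26, with list medians of -0.67, -0.01, -0.35 and -0.08 on replicates 1 to 4, and 2 of the 6 genes on the list were measured. nSyb, the single neuronal marker measured of 6, was at 0.22. The single gut marker measured, Mal-A2, was at 0.47 and the single muscle marker measured, Act88F, at -0.08. Photoreceptor markers, 2 of 8 measured, had means of -0.00025 (trpl) and 0.03 (Arr1). Fat body markers, 4 of 6 genes on 5 clones, ranged from -0.14 to 1.31 and did not move as 1. The high end came from the yolk protein genes alone, with Yp3 at 1.31, the highest mean of all clones tested, and Yp2 at 0.52. Lsp2 was at 0.05, and the apolpp clones were at -0.14 and 0.0037. Why the yolk protein genes stood apart from the rest of this list was not tested. The part of cell type composition in the values of the members was not tested.

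The clones most like each member were found by the root mean square difference of centred log2 ratios over the member's own 3 arrays, as a description over 3 points, among 2407 candidate clones of named genes (572 for the first CtBP clone). For CkIalpha these were mub, an RNA-binding protein gene, CG11155 and Rab2, a small GTPase gene of the secretory pathway, with differences of 0.018, 0.021 and 0.023. mub, at -0.26, -0.26 and -0.26 on replicates 1 to 3, also had a value of -0.56 on replicate 4, where CkIalpha had none. slmb had no equally close partner, and Strip, CG10494 and Inx2, a gap junction gene, came nearest with 0.040 to 0.045. For nkd the nearest were Mpi, ATPsynE and Nmt, with 0.018 to 0.025. Their high value on replicate 2 follows from the way they were chosen. For the second CtBP clone they were isoQC, BomT3 and Atf6 (0.010 to 0.023), and for the first Ptp36E, vig and Cpr12A (0.016 to 0.030).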

How the data were processed

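RNA from separate pools of frozen male heads was amplified, labelled as antisense RNA and hybridized to CDMC cDNA slides. The authors scanned and quantified the slides in GenePix Pro 6.0, applied ratio normalization with Acuity 4.0, ignoring spots under 100 units of raw intensity and near background, and kept spots with under 3% saturated pixels, a regression R2 above 0.6 and a signal-to-noise ratio above 3. The deposited values are log2 ratios of Cy5 over Cy3. Adjacent rows (2 spots of a clone, 27648 spots in 13824 clones) were averaged, and of 7609 pairs named on both spots 0 had different names. Names were updated by Entrez identifier to a RefSeq table of assembly Release 6 (97.9% of 15218 annotated probes). Clones with values on at least 3 arrays (4208) were centred on the array median and tested against 0 with limma 3.58.1 in R 4.3.3, two-sided, with Benjamini-Hochberg adjustment over all clones at 0.05. The fit was tested on simulated data over 4208 clones, where it called 40% of changes of 0.5 on the log2 scale and 99.1% of changes of 1 for the comparison of clones with 0. The simulated arrays varied independently, with the spread over all clones of an array as noise. No change between 0 and 0.5 was drawn, and the member means were smaller than 0.5. These shares therefore do not give the chance of calling the member clones. SAM (one-class, the method of the study) was recomputed from its definition on values as deposited, over 16 sign patterns. Its 160 calls differ from the study's own result. The study reported no differentially expressed gene on its control arrays except at a very high false discovery rate. The cause of this difference was not tested. The members, lists and tests were chosen with earlier results of these data known. Named genes were the members, all measured genes of each pathway list (none had over 4 measured clones), and the 3 clones nearest to each member. Probe sequences and genome coordinates were not used here.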

Additional observations from a re-analysis of the deposited data

Results flagged for a closer look

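The following 3 of 8 sets of 4 array values held a value far from the others, where chance gives about 1 in 20. The sets share the arrays and are not independent. The median of the deposited log2 ratios was -0.70 on replicate 4, against 0.00 to 0.14 on the other arrays. Replicate 4 also had values for 2240 spots, against 7966 to 8429. The centred log2 ratio of CtBP, averaged over its clones, was -0.30 on replicate 3 and between -0.10 and -0.09 on the other arrays. On replicate 3 this mean holds the second clone alone, whose own values on replicates 1 and 2, -0.21 and -0.24, lay close to it.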

How the results depend on the processing

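No paired analysis was possible because there was 1 group of arrays. Of 24 alternative settings, 3 chosen after seeing the data, 23 gave a value for CkIalpha, slmb, nkd and CtBP and called 0 of their clones. No clone of these genes had values on all 4 arrays, which was the other setting. Differences between them were tested in 17 settings, and 0 had an exact p under 0.05, which 3 arrays cannot reach. Calls over all clones did depend on the setting: limma called 2 with the median of 49 neighbouring spots, 1 with values on at least 2 arrays, 465 with duplicate spots entered separately (consensus correlation 0.63), 0 to 380 with 1 array left out (380 without replicate 4 and 84 without replicate 1), and without replicate 4 it called 379 of clones on the other 3 arrays, 792 as deposited and 68 with the neighbours' median. SAM called 160.

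Without a sign turned, the means ranged from -0.27 to -0.17 for CkIalpha, -0.35 to -0.22 for slmb and -0.27 to -0.04 for the second CtBP clone. With replicates 2 and 3, or 2, 3 and 4, turned, they were 0.067, 0.123 and 0.107 in that order. The first CtBP clone was at -0.204 as deposited and in SAM, 0.120 with the neighbours' median, 0.039 with replicate 4 or 3 and 4 turned and 0.022 with 2 and 4 or 2, 3 and 4 turned. It ran from -0.041 to 0.015 with 1 array left out, and without replicate 4 it was at 0.086 as deposited and 0.262 with the neighbours' median. nkd was at 0.034 as deposited, with or without replicate 4, and in SAM. It was at 0.010 with arrays scaled and 0.082 with replicate 3 or 3 and 4 turned, and it ran from -0.136 to 0.032 with 1 array left out.

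With replicate 2 or 2 and 4 turned, the difference was -0.060 for CkIalpha minus slmb, -0.0043 for the second CtBP clone minus CkIalpha, -0.064 for that clone minus slmb, and -0.056, -0.051 and -0.115 for nkd minus CkIalpha, the second CtBP clone and slmb. With 2 and 3 or 2, 3 and 4 turned, CkIalpha minus slmb was -0.056, the second CtBP clone minus slmb -0.016, and nkd minus the same 3 clones -0.086, -0.127 and -0.143. With 1 array left out, CkIalpha minus slmb ran from -0.0088 to 0.078, the second CtBP clone minus CkIalpha from -0.030 to 0.034 that clone minus slmb from -0.011 to 0.109, nkd minus slmb from 0.106 to 0.364, nkd minus CkIalpha from 0.115 to 0.290 and nkd minus the second CtBP clone from 0.118 to 0.256. The cause of these changes was not tested.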
